A study of Rattus norvegicus with 15 samples.

Results

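Immediate early genes are the genes that cells switch on within minutes of a stimulus, before new protein has been made. The 10 studied here were Fos, Fosb, Jun, Junb, Atf3, Egr1, Egr2, Nr4a1, Ier2 and Dusp1. They were found as the probe sets that carry one of these symbols and no other, which gave 11 probe sets out of 36685 on the array, and 10 genes out of the 18166 genes named there. Jun had a second probe set, and the probe set with the higher mean over all arrays stood for the gene.

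The samples were right-knee articular cartilage from Sprague-Dawley rats at 5 stages. T0 was the newborn stage, T1 was youth and T2 was adult. The old rats formed an early-stage elderly group (T3) and a latter-stage elderly group (T4). Each stage had 3 arrays, 15 in all, labelled as biological replicates of knees harvested individually. No stage was treated, all share the strain and tissue, and the sources used here do not give age, sex or the time from death to freezing. Values are log2 signals, so a difference of 1 is a doubling, and signals of different genes are not compared with each other as amounts.

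Growth factor and stress signals reach these genes through MAP kinases, serum response factor with its ternary complex partners, and the cyclic AMP responsive factor CREB. Fos and Jun proteins pair to form the transcription factor AP-1, EGR proteins bind GC-rich sites, and Dusp1 removes phosphate from the MAP kinases and so closes the loop. In cartilage, AP-1 is known from the response of chondrocytes to cytokines and mechanical load, where it drives matrix protease genes. Because the transcripts come and go quickly, they are also known to respond to handling and to the delay before tissue is frozen.

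The promoters are shown because they carry the sites that these signals are known to use. The RefSeq promoter table (assembly GRCr8) held 7 of the 10 genes, and the 250 bases before each transcription start were searched on both strands. The CArG box, bound by serum response factor, was found in Egr1 and Egr2 and in 1.5% of 27457 promoters of the same length. The cyclic AMP response element TGACGTCA was found in Ier2 and Dusp1 and in 1.7% of all promoters. In the sequences below the capitals mark those sites.
Egr2 promoter, chr20:21054442-21054691, minus strand, CArG box in capitals: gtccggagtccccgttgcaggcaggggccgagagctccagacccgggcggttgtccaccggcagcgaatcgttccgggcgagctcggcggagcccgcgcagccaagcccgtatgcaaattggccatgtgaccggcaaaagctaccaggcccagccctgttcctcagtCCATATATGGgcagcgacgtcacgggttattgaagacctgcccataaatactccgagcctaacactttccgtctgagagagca
Ier2 promoter, chr19:40399123-40399372, plus strand, TGACGTCA in capitals: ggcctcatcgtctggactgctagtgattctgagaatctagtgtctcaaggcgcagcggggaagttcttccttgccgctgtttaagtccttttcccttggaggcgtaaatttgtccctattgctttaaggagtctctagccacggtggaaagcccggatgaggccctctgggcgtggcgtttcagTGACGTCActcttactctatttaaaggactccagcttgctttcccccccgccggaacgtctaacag
Dusp1 promoter, chr10:17184603-17184852, plus strand, TGACGTCA in capitals: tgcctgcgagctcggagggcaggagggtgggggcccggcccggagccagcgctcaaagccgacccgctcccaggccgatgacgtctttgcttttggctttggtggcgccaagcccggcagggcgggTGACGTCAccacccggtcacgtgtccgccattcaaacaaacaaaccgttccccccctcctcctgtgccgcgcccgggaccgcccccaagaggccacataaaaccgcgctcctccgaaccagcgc
The Egr1 promoter held a pair of CArG boxes, CCATATTAGG at 105 to 96 bases before the start and CCATATATGG at 83 to 74 bases. The Egr2 promoter held the same CCATATATGG at the same distance, 83 to 74 bases. The element lay 66 to 59 bases before the start in Ier2 and 124 to 117 bases in Dusp1. A TATAAA box was present in Junb (49 to 44 bases) and, on the opposite strand, in Fosb (180 to 175 bases), against 13.1% of all promoters. None of the 7 held the AP-1 site (TGAGTCA or TGACTCA, in 3.98% of promoters) or the EGR site GCGTGGGCG (in 0.514%). A match describes the letters in this window and no more.

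The arrays of the old rats differ as a whole from the rest, which touches every comparison with T3 and T4. The SD of the signals over probe sets averaged 2.02 in each of the first 3 stages, 1.89 in T3 arrays and 1.62 in T4 arrays. The 1184 olfactory receptor genes, a gauge of background here, had a mean log2 median of 2.92 at T2, 3.22 at T3 and 3.89 at T4. The 52 ribosomal protein genes had a median of 8.30 at T4, with 6.67 in T4 replicate 1, against 9.77 at T2. The 95th percentile of the olfactory receptor genes averaged 4.87 at T2, 5.30 at T3 and 6.24 at T4. Of the 10 immediate early genes, 9 or 10 lay above it on each array up to T3, 2 on T4 replicate 1 and 7 on each other T4 array. Atf3, Egr2 and Nr4a1 lay below it on all T4 arrays, and Fosb, Jun, Egr1, Ier2 and Dusp1 on T4 replicate 1. One array, T1 replicate 3, has the source name of an adult sample while its other labels say youth, and it was kept in T1.

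The tissue label was checked against cell type markers. Of 13 cartilage markers 12 were measured, and their mean log2 signal was 10.1, 9.57, 8.59, 7.45 and 6.38 from T0 to T4. All 12 exceeded the 95th percentile of the olfactory receptor genes on every array up to T2, against 9 to 12 of them on T3 arrays and 3 to 9 on T4 arrays. Skeletal muscle markers (7) averaged 10.7 at T0, 8.82 at T1 and 5.18 at T2, erythroid markers (6) 6.14, 11.0 and 10.7, and neutrophil and myeloid markers (11) 5.67, 8.75 and 10.3. Of the other lists, B and T cell markers (8) averaged 6.65 at T2 and 4.93 at T0, macrophage markers (9) 7.48 and 7.09, osteoblast and osteocyte markers (9) 8.62 and 7.78, endothelial markers (6) 6.60 and 7.19, and synovial and tendon fibroblast markers (8) 6.95 and 9.14, each at T2 and then T0. In bulk tissue, fewer cells of a type and less RNA per cell cannot be told apart.

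**Figure D1:**
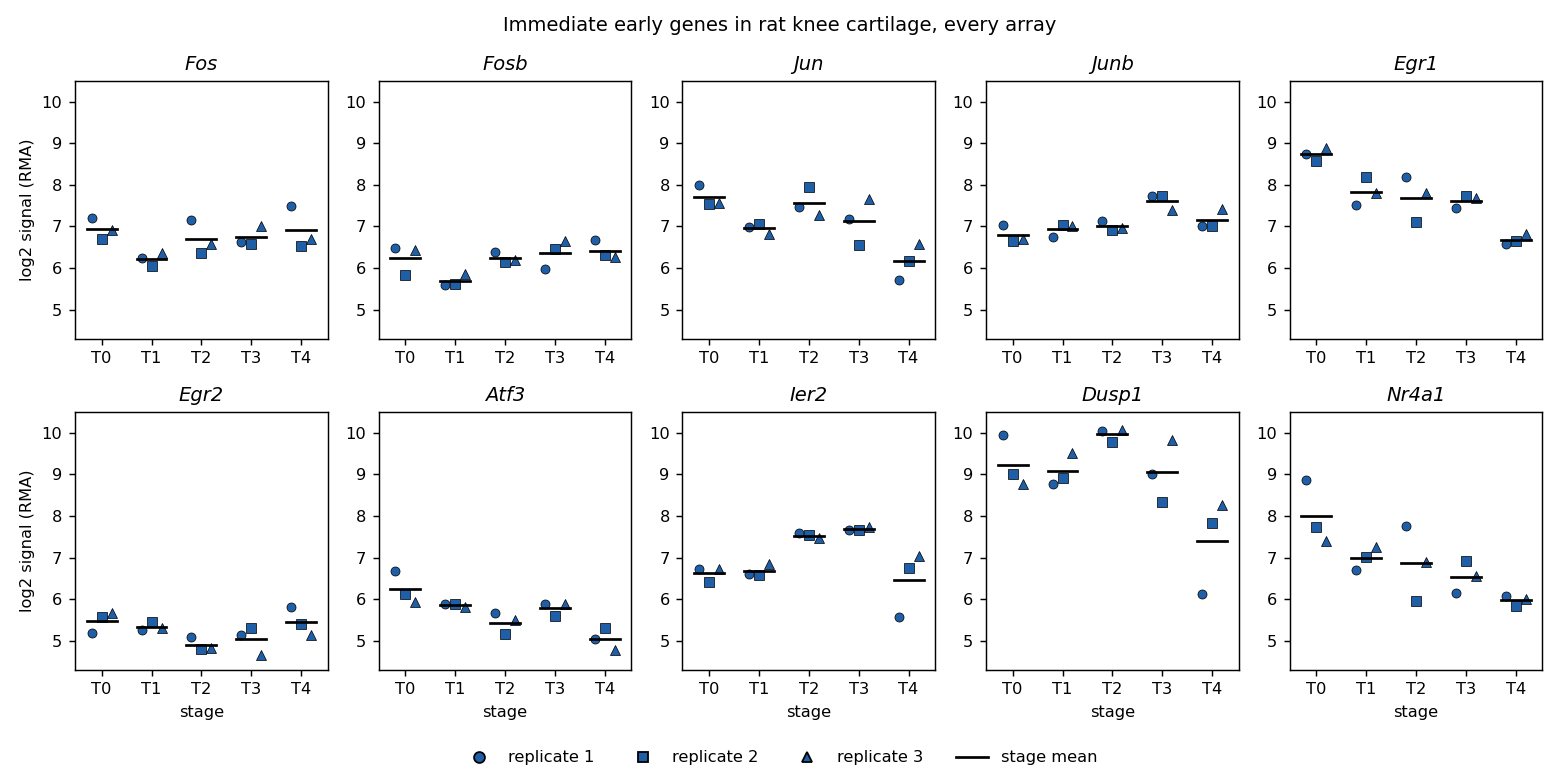
Log2 signal of the 10 immediate early genes on every array (one panel per gene, stages T0 to T4 on the horizontal axis, marker shape for the replicate number, bar for the mean of 3 arrays). Egr1 and Nr4a1 have their highest mean at T0 and their lowest at T4, Ier2 is highest at T2 and T3, and Dusp1 spreads over 3.96 log2 units.

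Over the 5 stages, 7 of the 10 genes passed limma's moderated F test at an adjusted p under 0.05, against 60.1% of all probe sets, so the genes changed about as often as any. Those that passed were Jun (adjusted p = 0.00337), Junb (0.0161), Atf3 (0.00388), Egr1 (0.000287), Nr4a1 (0.0102), Ier2 (0.00473) and Dusp1 (0.00643). Fos (0.155), Fosb (0.0638) and Egr2 (0.114) did not pass. The genes did not share a profile: 6 of the 10 had their highest mean at T0, 2 at T3, and 1 each at T2 and T4. The mean of the 10 genes was 7.20 ± 0.26, 6.76 ± 0.11, 6.99 ± 0.24, 6.96 ± 0.13 and 6.36 ± 0.15 from T0 to T4 (SD, n = 3 each). Of the 40 gaps between neighbours in the 10 orders of stage means, 4 were called. Of the 36 that were not called, the arrays of the neighbouring stages did not overlap in 6: Fosb and Ier2 at T2 and T1, Ier2 at T3 and T2, Atf3 and Nr4a1 at T1 and T0, and Nr4a1 at T4 and T3. Among all probe sets, 32.3% did not overlap at T1 and T0, the pair that applies to Atf3 and Nr4a1 there. The shares for the other pairs of stages are not given here. None of these 6 is read as a change. The orders were not worked out over all probe sets, so the 4 called gaps have no share beside them.

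Fos, the AP-1 subunit most often used as a sign of recent activation, was above the olfactory 95th percentile on 15 of 15 arrays (probe set 17817508). Its log2 signal was 7.21, 6.70 and 6.92 at T0, 6.24, 6.04 and 6.37 at T1, 7.15, 6.37 and 6.57 at T2, 6.63, 6.58 and 6.999 at T3, and 7.50, 6.53 and 6.71 at T4. T1 was the low stage and did not overlap T0, T3 or T4, but no step between neighbouring stages passed the test. The difference of T1 from T0 was -0.73 (SE 0.27, limma adjusted p = 0.163). The order of means was T0, T4, T3, T2, T1, and no neighbouring pair was called.

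Fosb, a partner of Jun with a shorter splice form known from chronic stimulation in brain, followed the same order of high and low stages up to T2 (probe set 17630236). It gave 6.48, 5.83 and 6.43 at T0, 5.58, 5.60 and 5.85 at T1, 6.39, 6.16 and 6.19 at T2, 5.99, 6.45 and 6.66 at T3, and 6.67, 6.32 and 6.27 at T4. T1 was again low and did not overlap T2, T3 or T4. T2 exceeded T1 by 0.57 (SE 0.23), with an unadjusted p of 0.0266 and a limma adjusted p of 0.441.

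Jun, a partner of Fos in AP-1, had the probe set 17808683 with signals of 8.01, 7.53 and 7.58 at T0, 6.99, 7.07 and 6.81 at T1, 7.46, 7.95 and 7.26 at T2, 7.17, 6.56 and 7.66 at T3, and 5.72, 6.17 and 6.58 at T4. T4 was lowest and overlapped only T3. Jun fell at T4 against T2 (-1.40, SE 0.30, limma adjusted p = 0.00136) and against T3 (-0.97, SE 0.30, adjusted p = 0.0182). Without T3 replicate 3 (-0.71, adjusted p = 0.0851) or T4 replicate 1 (-0.75, 0.0746) the call against T3 was lost. T1 was its neighbour in the order of means, and that gap was called too (-0.79, adjusted p = 0.0346).

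The other Jun probe set, 17799870, went the opposite way at T4. It gave 7.05, 6.98 and 6.74 at T4, against 5.68, 6.41 and 5.95 at T3 and 6.02, 6.06 and 5.85 at T2. It rose by 0.94 (SE 0.20, limma adjusted p = 0.00149) over T2, by 0.91 (SE 0.20, adjusted p = 0.00377) over T3 and by 1.04 (SE 0.20, adjusted p = 0.000825) over T1. With the mean of both probe sets the changes were -0.23 (adjusted p = 0.319) and -0.03 (adjusted p = 0.907). The direction of Jun at T4 therefore depends on the probe set read, and the fall of Jun at T4 is reported as uncertain.

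**Figure D2:**
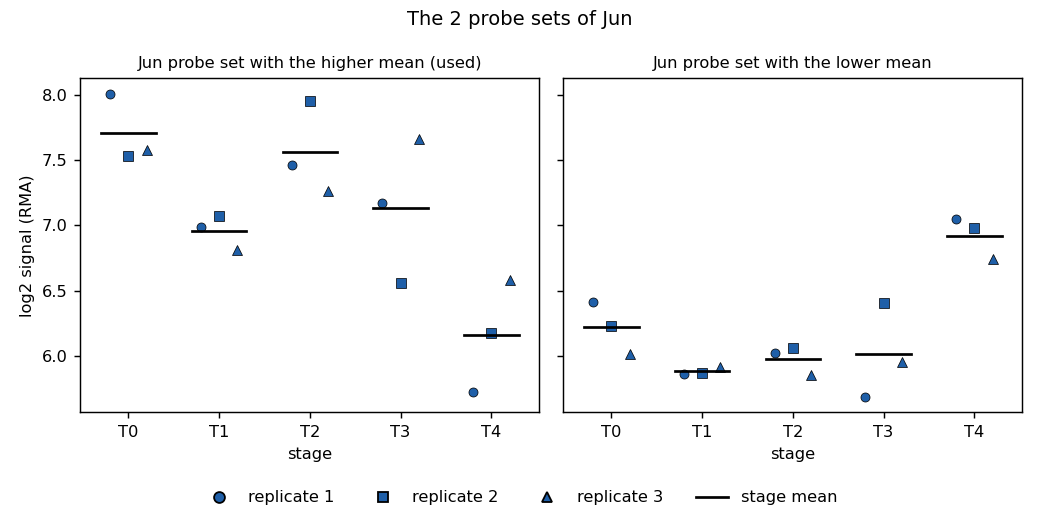
Log2 signal of the Jun probe set used for the gene (left) and of the other Jun probe set (right) on every array, by stage, with bars for the mean of 3 arrays. The left probe set has its lowest signals at T4, between 5.72 and 6.58, while the right one has its highest there, between 6.74 and 7.05.

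Junb, an AP-1 subunit that can restrain Jun, had its highest stage at T3 (probe set 17728638). It gave 7.04, 6.64 and 6.69 at T0, 6.75, 7.04 and 7.02 at T1, 7.12, 6.91 and 6.97 at T2, 7.73, 7.72 and 7.40 at T3, and 7.01, 7.01 and 7.42 at T4. All T3 arrays lay above all T0, T1 and T2 arrays. Junb rose by 0.83 at T3 over T0 (SE 0.19, limma adjusted p = 0.00807), a 1.77-fold higher signal. Over T2 the difference was 0.62 (SE 0.19, unadjusted p = 0.00635, limma adjusted p = 0.119), which did not pass.

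Atf3, a stress-induced factor of the ATF family that can pair with Jun, was lowest in the latter-stage elderly (probe set 17687609). It gave 6.69, 6.13 and 5.93 at T0, 5.88, 5.89 and 5.81 at T1, 5.66, 5.15 and 5.50 at T2, 5.89, 5.58 and 5.89 at T3, and 5.04, 5.30 and 4.77 at T4. T0 did not overlap any later stage, and T4 did not overlap T3. Atf3 fell at T2 against T0 (-0.82, SE 0.23, limma adjusted p = 0.0267). It was also called lower at T4 than at T3 (adjusted p = 0.0174), but it was above the olfactory 95th percentile on 0 of 3 T4 arrays. The mean of that line at T4 (6.24) exceeded the T3 mean of Atf3 (5.79), so no size is given for this fall. The T2 call was lost without T0 replicate 1 (-0.60, adjusted p = 0.146), T0 replicate 2 (-0.88, 0.056), T2 replicate 2 (-0.67, 0.14) or T2 replicate 3 (-0.85, 0.0669). The T4 call was lost without T3 replicate 1 (adjusted p = 0.0543), T3 replicate 3 (0.0527) or T4 replicate 3 (0.0633).

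Egr1, the zinc finger factor whose promoter carries the pair of CArG boxes, had stage means ordered T0, T1, T2, T3 and T4 from high to low (probe set 17722348). It gave 8.75, 8.57 and 8.88 at T0, 7.51, 8.18 and 7.79 at T1, 8.19, 7.10 and 7.79 at T2, 7.44, 7.74 and 7.68 at T3, and 6.58, 6.65 and 6.83 at T4. T0 lay above every later array and T4 below every earlier one, while T1, T2 and T3 overlapped. Egr1 fell at T1 against T0 (-0.90, SE 0.26, limma adjusted p = 0.0462), and it was also lower at T2 (-1.04, SE 0.26, adjusted p = 0.0129) and T3 (-1.11, SE 0.26, adjusted p = 0.00754) than at T0. It fell again at T4 against T3 (-0.94, SE 0.26, adjusted p = 0.0108). That fall was not called after quantile normalization, which gives every array the same distribution (-0.33, limma adjusted p = 0.312). Nor was it called with only the T3 and T4 arrays fitted (adjusted p = 0.0636). The T1 call was fragile: it was lost without any of 11 of the 15 arrays, with an adjusted p of up to 0.215 without T1 replicate 1 (-0.75). The others were T0 replicate 1 (0.131), T0 replicate 2 (0.0887), T0 replicate 3 (0.154), T1 replicate 3 (0.143), T2 replicate 3 (0.0651), T3 replicate 1 (0.0572), T3 replicate 2 (0.0514), T3 replicate 3 (0.0537), T4 replicate 2 (0.0516) and T4 replicate 3 (0.0557). The T2 call was lost without T0 replicate 3 (-0.97, adjusted p = 0.0565) or T2 replicate 2 (-0.74, 0.0744).

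Egr2, the paralog with the same CArG letters at the same distance, was the faintest member and passed the olfactory 95th percentile on 7 of 15 arrays (probe set 17758189). It gave 5.19, 5.57 and 5.66 at T0, 5.26, 5.45 and 5.30 at T1, 5.09, 4.80 and 4.83 at T2, 5.13, 5.30 and 4.67 at T3, and 5.80, 5.41 and 5.14 at T4. T2 was the low stage and overlapped only T3, but no step was called. Its signal lay near the background, which limits what could be detected.

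Nr4a1, an orphan nuclear receptor that answers cyclic AMP and calcium signals, had the widest spread within T0 to T2 (probe set 17832476). It gave 8.87, 7.74 and 7.41 at T0, 6.70, 7.02 and 7.25 at T1, 7.77, 5.95 and 6.89 at T2, 6.14, 6.92 and 6.57 at T3, and 6.08, 5.84 and 6.00 at T4. The order of means ran from T0 down to T4, as for Egr1, with all T4 arrays below the olfactory 95th percentile. Nr4a1 fell at T3 against T0 (-1.46, SE 0.42, limma adjusted p = 0.027), a 2.76-fold lower signal. That call was lost without T0 replicate 1 (-1.03, adjusted p = 0.129) or T3 replicate 1 (-1.26, 0.108).

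Ier2, a small nuclear protein of the early response, was the most even member within T0 to T2 and stood highest in the adult and early-stage elderly (probe set 17728750). It gave 6.74, 6.41 and 6.72 at T0, 6.61, 6.59 and 6.83 at T1, 7.60, 7.53 and 7.47 at T2, 7.66, 7.65 and 7.72 at T3, and 5.57, 6.75 and 7.03 at T4. All T2 and T3 arrays lay above all T0, T1 and T4 arrays. Ier2 rose by 1.06 at T3 over T0 (SE 0.29, limma adjusted p = 0.0203) and fell at T4 against T3 (-1.23, SE 0.29, adjusted p = 0.00497). The SE rests on a spread shared by all stages, while the SD of Ier2 was 0.04 at T3 and 0.78 at T4. The T4 fall was not called with only the T3 and T4 arrays fitted (adjusted p = 0.0789) or after quantile normalization (-0.85, adjusted p = 0.107). T2 exceeded T1 by 0.85 (SE 0.29, unadjusted p = 0.0105, limma adjusted p = 0.283) and T0 by 0.91 (adjusted p = 0.0543). The T3 call was lost without T0 replicate 2 (0.95, adjusted p = 0.0855) or T3 replicate 1 (1.07, 0.0544), and without T4 replicate 1 both T2 differences passed (adjusted p = 0.0119 over T1 and 0.000731 over T0).

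Dusp1, the phosphatase that switches MAP kinases off, lay at the top of the array at T2, at the 98.7th percentile of all genes on average (probe set 17644874). It gave 9.94, 9.004 and 8.76 at T0, 8.78, 8.92 and 9.53 at T1, 10.04, 9.79 and 10.08 at T2, 9.02, 8.34 and 9.83 at T3, and 6.12, 7.82 and 8.27 at T4. All T4 arrays lay below every earlier array. Dusp1 fell at T4 against T2 (-2.57, SE 0.50, limma adjusted p = 0.000799), a 5.93-fold lower signal, and against T3 (-1.66, SE 0.50, adjusted p = 0.0172). The fall against T3 was lost without T3 replicate 3 (-1.27, adjusted p = 0.0813) or T4 replicate 1 (-1.02, 0.0772), while that against T2 was called in every alternative run, at -3.00 to -1.80.

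Between neighbouring stages up to T3, few members passed. At T1 against T0, 1 of 10 (Egr1, lower) was called, against 7.56% of all probe sets, or 3.54% in that direction. Stage arrays did not overlap for 5 of the 10, against 32.3% of probe sets. At T2 against T1 limma called 0 of 10, against 0.891% of probe sets, with 2 (Fosb and Ier2) at an unadjusted p under 0.05. At T3 against T2 it called 0 of 10, against 0.150%, with 1 (Junb) at an unadjusted p under 0.05. With limma's array weights the counts were 3, 1 and 2, and the share of all probe sets called with these weights is not given here.

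Against the newborn, the adult (T2) showed 2 of 10 called, Egr1 and Atf3, both lower, against 12.7% of probe sets, 6.19% lower. The early-stage elderly (T3) showed 4 of 10 called, against 17.9%, with Junb and Ier2 higher (8.30% of probe sets) and Egr1 and Nr4a1 lower (9.57%). This comparison of T3 with T0 was added after seeing the data. The median change of the 10 genes at T3 against T0 was -0.32, against 0.08 over all genes. With quantile normalization, which called 13.1% of all probe sets, 2 of these 4 passed, Junb (0.94, adjusted p = 0.00987) and Egr1 (-0.83, adjusted p = 0.0466). Ier2 (1.14, adjusted p = 0.0814) and Nr4a1 (-1.22, adjusted p = 0.0696) kept their direction without a call. Cartilage markers fell in 10 of 12 and skeletal muscle markers in 7 of 7 in the same comparison, and erythroid markers rose in 6 of 6. Their part in the changes of the immediate early genes was not tested.

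In the latter-stage elderly, 5 of 10 genes were called against T3 (42.2% of probe sets, 25.8% lower) and 4 of 10 against T2 (56.5%, 29.4% lower), all lower. Against T3 these were Jun, Egr1, Atf3, Ier2 and Dusp1, and against T2 they were Jun (-1.40), Egr1 (-1.01, adjusted p = 0.00445), Ier2 (-1.08, adjusted p = 0.006) and Dusp1 (-2.57). The median change of the members was -0.66 against T3 and -0.65 against T2, against -0.15 and -0.12 over all genes. With quantile normalization, which gives every array the same distribution, only Atf3, which was below the olfactory 95th percentile at T4, stayed called against T3 (adjusted p = 0.0141). Against T2 that scaling called Fos (1.11, adjusted p = 0.0202), Fosb (0.78, 0.0213) and Junb (1.07, 0.00168) higher and Jun (-0.86, 0.0394) and Dusp1 (-1.80, 0.0139) lower. It called 47.1% of all probe sets there, and no longer Egr1 (-0.17, 0.608) or Ier2 (-0.47, 0.351). Fos was uneven over the T4 arrays, with an SD of 0.92 after this scaling. Its rank among genes was highest on T4 replicate 1, at the 98.5th percentile. Over all probe sets the quantile-normalized fit called 6801 higher and 6439 lower at T4 against T3, while the deposited values gave 6042 and 9451. Markers of cell types fell in the same comparison with T2: 9 of 12 for cartilage, 8 of 9 for macrophages, 7 of 11 for neutrophil and myeloid cells, 6 of 9 for osteoblasts and osteocytes (1 rose), 4 of 6 erythroid, 4 of 8 for B and T cells, 4 of 8 for synovial and tendon fibroblasts (1 rose) and 3 of 6 endothelial (1 rose). Of the 7 skeletal muscle markers 2 rose and 0 fell. The mean log2 signals of these lists on T4 arrays, against T2 arrays, ran from 6.13 to 6.85 against 8.27 to 8.84 for cartilage, 5.45 to 6.34 against 7.17 to 7.80 for macrophages, 6.96 to 9.48 against 10.2 to 10.3 for neutrophil and myeloid cells, and 6.14 to 7.73 against 8.37 to 9.12 for osteoblasts and osteocytes. They ran from 6.51 to 9.73 against 10.54 to 10.83 for erythroid cells, 5.64 to 5.76 against 6.48 to 6.89 for B and T cells, 5.64 to 6.05 against 6.69 to 7.39 for synovial and tendon fibroblasts, 5.92 to 6.18 against 6.37 to 6.84 for endothelium and 5.60 to 7.64 against 5.07 to 5.39 for skeletal muscle. The narrower range of signals at T4 moves with these falls too, and the part of either in the falls of the immediate early genes was not tested.

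T1 was the low stage of Fos and Fosb. Against T1, in a comparison added after seeing the data, the T4 arrays gave 6 of 10 calls, against 54.4% of probe sets. The p-values for the rises of Fos and Fosb from their lowest stage are therefore no independent test. Fosb rose (0.74, SE 0.23, limma adjusted p = 0.0144) and Fos rose (0.69, SE 0.27, adjusted p = 0.0453), while Egr1 (-1.15, SE 0.26, adjusted p = 0.00212), Dusp1 (-1.67, SE 0.50, 0.0118) and Jun fell. Atf3 was called lower (adjusted p = 0.00769), with no size given, since it was below the olfactory 95th percentile at T4. The rise of Fos was lost without T0 replicate 2 (adjusted p = 0.0517), T0 replicate 3 (0.0572), T1 replicate 1 (0.0865), T1 replicate 2 (0.132), T1 replicate 3 (0.0625), T2 replicate 3 (0.0562), T3 replicate 1 (0.0538) or T4 replicate 1 (0.40, 0.199). Jun was lost with a replicate block (adjusted p = 0.0506) and without T4 replicate 1 (-0.58, adjusted p = 0.135), T4 replicate 2 (-0.80, 0.0579), T1 replicate 1 (-0.78, 0.0784), T1 replicate 2 (-0.74, 0.0934) or T1 replicate 3 (-0.87, 0.0528), and Dusp1 without T4 replicate 1 (-1.03, 0.0555). After quantile normalization Fos, Fosb and Junb were called higher and Atf3 lower, against 44.6% of all probe sets called. After median centring Fos (0.46, adjusted p = 0.18) and Fosb (0.51, 0.0797) were not called.

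**Figure D3:**
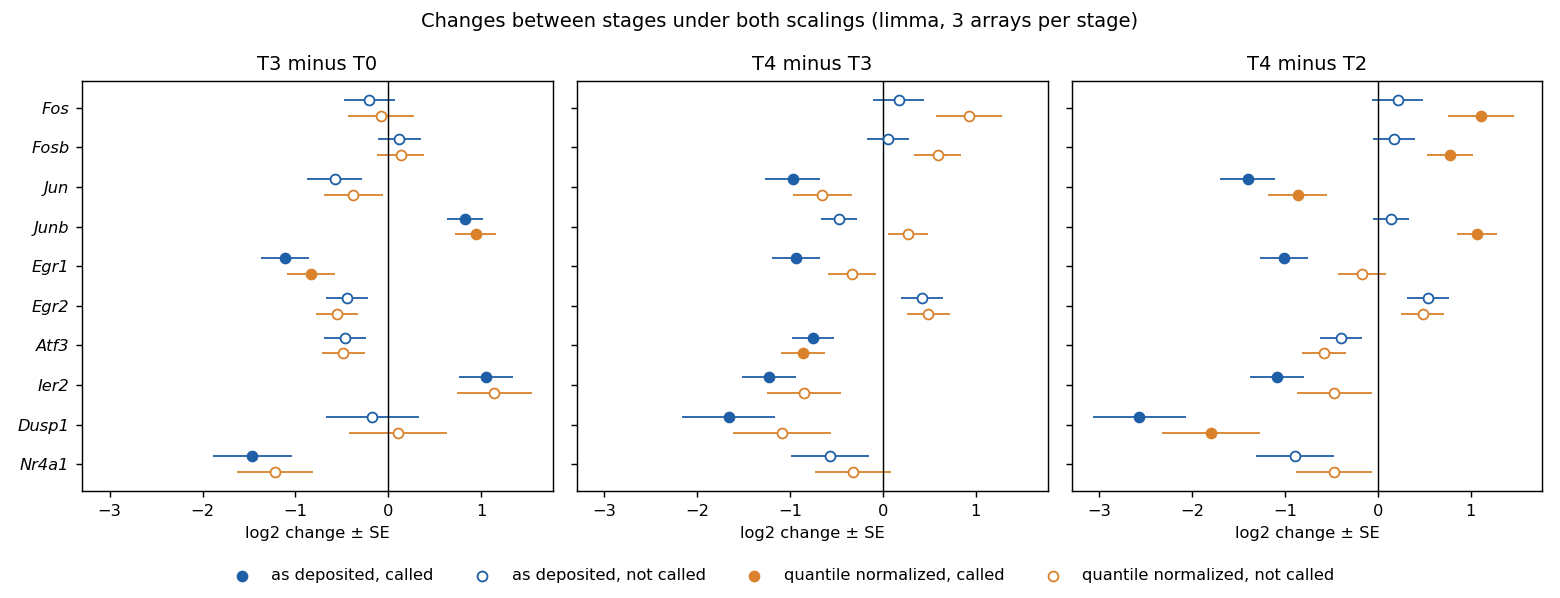
Log2 change ± SE of each gene for T3 minus T0, T4 minus T3 and T4 minus T2 (3 arrays per stage), as deposited in blue and after quantile normalization in orange, filled where limma called the change. Junb is higher and Egr1 lower at T3 than at T0 under both scalings, whereas Fos, Fosb and Junb are called higher at T4 than at T2 after quantile normalization and not as deposited.

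The rank of a gene within its array does not depend on the scale of the signals. From T0 to T4, Junb stood at the 72.1, 73.9, 75.1, 88.6 and 93.8th percentile of all genes and Fosb at the 62.1, 49.2, 61.2, 67.1 and 82.0th. Fos stood at 74.7, 59.6, 69.6, 75.1 and 89.6. Egr1 moved little, with 95.1 at T0 and between 85.2 and 88.9 at the later stages, although its signal was lowest at T4. Dusp1 stood at 96.6 or above up to T3 and at 90.0 at T4, where its arrays gave 75.2, 96.6 and 98.3. Nr4a1 stood at 88.3, 74.8, 72.0, 70.9 and 68.6. Fos, Fosb and Junb had their highest rank at T4, where the log2 signal of none of these 3 was called higher than at T2 or T3 on the deposited values. Nr4a1, like Egr2 (49.6 at T4) and Atf3, was below the olfactory 95th percentile on all T4 arrays, so its rank there is that of a signal at background. The same holds on T4 replicate 1 for Fosb (90.7), Egr1 (88.9) and Dusp1 (75.2). Ranks at T4 rest on arrays with a compressed range and carry no test.

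**Figure D4:**
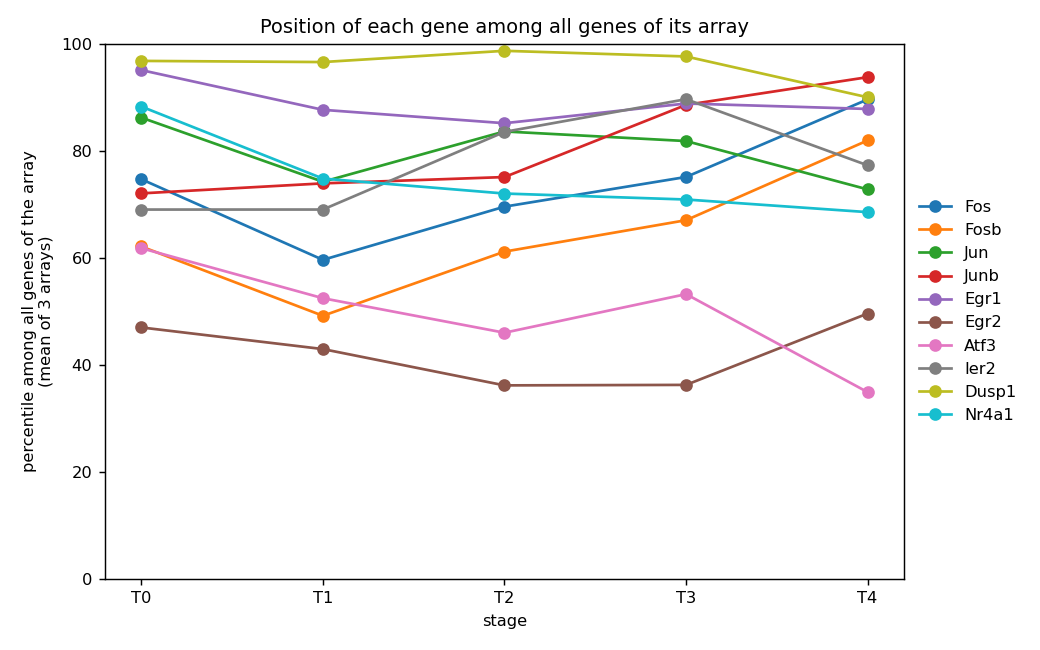
Mean percentile of each gene among all genes of its array (3 arrays per stage, stages T0 to T4). Junb, Fos and Fosb stand at 93.8, 89.6 and 82.0 at T4, Nr4a1 at 68.6, and Dusp1 stays at or above 90.0.

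The spread within a stage differed among the genes. The within-stage SD over T0 to T2 was 0.71 for Nr4a1, higher than in 99.6% of genes, 0.43 for Dusp1 (96.7%) and 0.38 for Egr1 (94.3%). At the low end it was 0.14 for Ier2 (21.9%), 0.17 for Junb (39.3%) and 0.18 for Egr2 (45.6%), below the median gene. The median of the 10 was 0.27, against 0.19 over all genes. T0 replicate 1 held the highest signal of its stage for 8 of the 10 genes and T2 replicate 1 for 8 of the 10, while T2 replicate 2 was lowest for 8. Across the 9 arrays of T0 to T2, deviations from the stage mean correlated above 0 in 35 of 45 pairs of genes (median r 0.44), with 0.95 for Fosb and Ier2, 0.91 for Atf3 and Nr4a1 and 0.84 for Fos and Nr4a1. Over all 15 arrays 28 of 45 were above 0 (median r 0.16), and Fosb with Ier2 gave -0.15. These points share the libraries and stage means were removed, so they describe these arrays only.

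Other genes moved on the same arrays. On T0 replicate 1 the glucocorticoid-responsive list (9 genes) stood 0.56, the erythroid list 0.82 and the neutrophil and myeloid list 0.49 above the stage mean, and the 10 immediate early genes 0.29. On T2 replicate 1 the cartilage list stood 0.25, the osteoblast and osteocyte list 0.50 and the AP-1 and EGR target list (14 genes) 0.36 above the mean, and the 10 genes 0.26. The synovial and tendon fibroblast list (0.44) and the macrophage list (0.31) stood above the mean there too. Some lists differed between the 2 arrays: erythroid (-0.12) and neutrophil and myeloid (-0.09) were below the mean on T2 replicate 1, and cartilage (-0.02) on T0 replicate 1. Others stood above it on both, with T0 replicate 1 given first. They were glucocorticoid-responsive (0.56 and 0.21), macrophage (0.19 and 0.31), 26 other immediate early genes (0.24 and 0.14) and endothelial (0.12 and 0.23). Osteoblast and osteocyte (0.11 and 0.50), B and T cell (0.05 and 0.23) and AP-1 and EGR target (0.03 and 0.36) did so too. Heat shock genes (10) stood at -0.06 and 0.06 on these arrays. Their part in the spread of the immediate early genes was not tested.

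**Figure D5:**
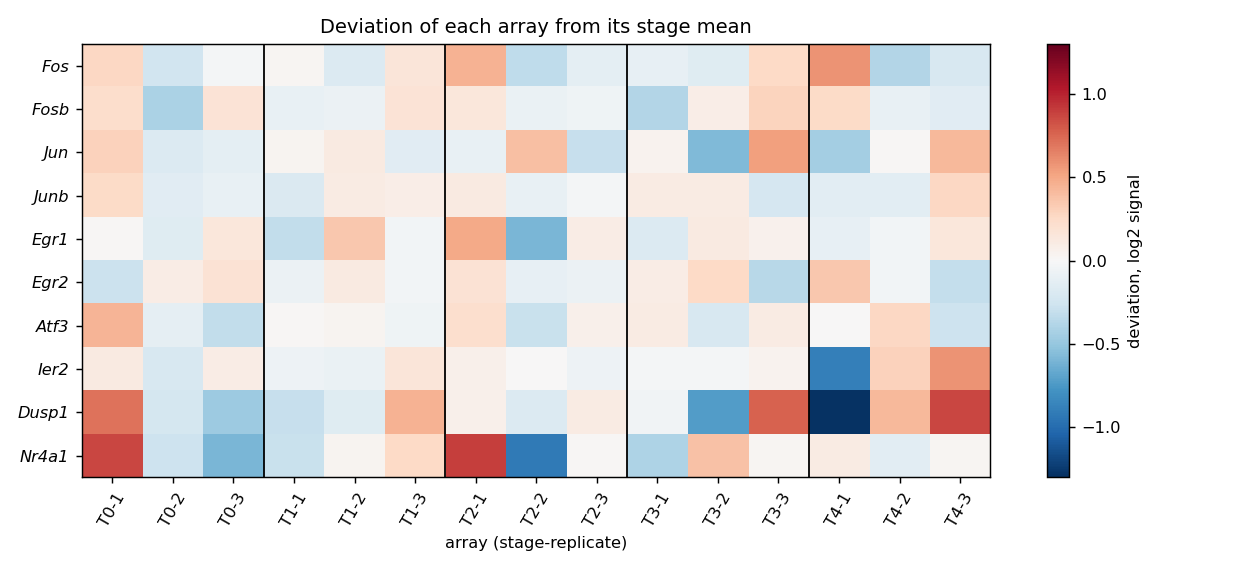
Deviation of each array from the mean of its stage, in log2 signal, for each gene (rows) and array (columns, stage-replicate), red above and blue below. T0 replicate 1 and T2 replicate 1 are above their stage mean for most genes, by 0.29 and 0.26 on average, and T2 replicate 2 is below it by 0.22.

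Among 26 other measured immediate early genes, 1 rose and 1 fell at T1 against T0, where 4.01% of all probe sets rose and 3.54% fell. Dusp2, a nuclear MAP kinase phosphatase of immune cells, rose (0.91, SE 0.20, limma adjusted p = 0.00943), and Jund, the Jun family member with steady expression, fell (-0.88, SE 0.22, adjusted p = 0.0242). At T2 against T0, 1 rose and 4 fell (6.51% and 6.19% of all probe sets), among them Jund (-0.94) and the pluripotency and barrier factor Klf4 (-1.41, adjusted p = 0.0139). limma called 0 of the 26 at T2 against T1 and at T3 against T2, with 2 and 7 at an unadjusted p under 0.05. At T4 against T2, 5 rose and 9 fell (27.2% and 29.4% of all probe sets), and after quantile normalization 11 rose and 3 fell. Maff (1.21, adjusted p = 0.000244), a small MAF protein, Arc (1.23, adjusted p = 0.000837), known from synapses, and Egr4 (adjusted p = 0.00085) were the rises with the smallest p. Maff had means of 6.36 at T4 and 5.15 at T2 and Arc 6.31 and 5.08, and each was above the olfactory 95th percentile on 2 of 3 T4 arrays. Egr4 (5.52 at T4 and 4.37 at T2) was above it on 0 of 3 arrays at either stage, so no change in its level can be read. The line itself averaged 6.24 at T4 and 4.87 at T2, and its part in the rises was not tested.

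Among 16 upstream kinases and factors, 1 rose and 0 fell at T1 against T0, where 4.01% of all probe sets rose and 3.54% fell. At T2 against T0, 2 rose and 2 fell (6.51% and 6.19% of all probe sets). limma called 0 at T2 against T1 and at T3 against T2, with 3 and 4 at an unadjusted p under 0.05. Creb1, whose protein binds the element shown for Ier2 and Dusp1, rose at T1 (0.97, SE 0.24, limma adjusted p = 0.0187) and at T2 against T0 (1.32, adjusted p = 0.00122). The p38 kinase Mapk14 was also higher at T2 than at T0 (0.95, adjusted p = 0.0087), and the JNK kinase Mapk9 lower (-0.60, adjusted p = 0.0287). At T4 against T2, 11 of the 16 fell and 0 rose, against 29.4% and 27.2% of all probe sets, with Rps6ka3 at -2.21 and Braf at -1.73, each above the olfactory 95th percentile on 1 of 3 T4 arrays, and after quantile normalization 4 fell and 3 rose. Of 11 AP-1 partners, Cebpa, a factor of myeloid and fat cells, rose at T1 (1.10, adjusted p = 0.0118), and at T4 against T2 7 fell and 0 rose (29.4% and 27.2% of all probe sets), with 3 and 1 after quantile normalization.

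Of 14 genes known as targets of AP-1 or EGR factors, the growth factor gene Tgfb1 rose at T1 against T0 (1.11, SE 0.19, limma adjusted p = 0.00162) and the chemokine gene Ccl2 fell (-1.72, SE 0.30, adjusted p = 0.00194). At T2 against T0, 1 rose and 3 fell (6.51% and 6.19% of all probe sets), Ccnd1 (-1.33), which drives cell division, among those that fell. At T4 against T2, 8 fell and 0 rose (29.4% and 27.2% of all probe sets), and after quantile normalization 4 fell and 0 rose. Mmp9, the gelatinase of neutrophils and osteoclasts, changed by -3.49 on the deposited values (adjusted p = 0.000491). Timp1, the protease inhibitor, was called lower (adjusted p = 0.000101) and was above the olfactory 95th percentile on 0 of 3 T4 arrays. Of 10 heat shock genes, Hspb1 fell at T1 (-2.23, SE 0.29, adjusted p = 0.000175) and 0 rose. Of 9 glucocorticoid-responsive genes, the cell cycle inhibitor Cdkn1a (-1.76, adjusted p = 0.000121) and the clock gene Per1 (-2.18, adjusted p = 0.00135) fell at T1 and 0 rose. Over all probe sets 3.54% fell and 4.01% rose at T1 against T0. At T4 against T2, 6 heat shock genes fell and 2 rose, with 4 and 3 after quantile normalization, and 5 glucocorticoid-responsive genes fell and 0 rose, with 1 and 0. Over all probe sets 29.4% fell and 27.2% rose in that comparison, and after quantile normalization 8598 of 36685 fell and 8684 rose. At the T1 step skeletal muscle markers fell in 6 of 7 and erythroid markers rose in 6 of 6, and their part in these changes was not tested.

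The genes whose level over the 15 arrays was most like the mean of the scaled members were Lcat, an enzyme of cholesterol ester formation (r = 0.89), Rnf19b (0.83), the cyclic AMP phosphodiesterase Pde4b (0.82), Man2c1 (0.81) and Id4 (0.81). Over the 12 arrays of T0 to T3 they were Pde4b (0.91), H1f6 (0.89), Fam161a (0.88), Lcat (0.86) and Or1e1c (0.85). Lcat and Pde4b stood in both lists. Most like Fos over 15 arrays were H1f6 (0.89), Fam161a (0.87) and Nptx2 (0.77). These are the highest of all genes named on the array, less the members and the symbols starting LOC, RGD, Olr, Mir, Snor or Vom. They share stage and library with the members. Or1e1c is itself one of the olfactory receptor genes used as the gauge of background.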

How the data were processed

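Total RNA was labelled with biotin and hybridised to Affymetrix rat gene arrays, per the labels' protocols. The authors deposited log2 signals made with RMA, per the submitters' processing notes. This method commonly corrects background, evens out arrays and summarises probes, so shared shifts can be lost. No version or genome build is given in the sources used here. These log2 values were used unchanged, and the number of arrays limits precision.

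limma 3.58.1 in R 4.3.3 estimated the mean of each stage from all 15 arrays, for 36685 probe sets. All stages shared a single estimate of spread per probe set, so an SE does not follow the spread of the stages compared. Changes are later minus earlier stage, with Benjamini-Hochberg adjustment over all probe sets. A change was called where its adjusted p was under 0.05. The method was tested on simulated data, with changes planted at T1 against T0 only. Noise was independent and had the same SD for a probe set on all arrays, so that test does not cover the uneven T4 arrays. Symbols came from the platform annotation (18511 probe sets with 1 symbol, 575 with several, 17599 with none), and promoters from RefSeq.

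The members and all gene lists were chosen with earlier results of these data known. Named genes were the 10 members, up to 3 called genes of each list with the smallest p, and those most correlated with the members, leaving out symbols starting LOC, RGD, Olr, Mir, Snor or Vom. Alternatives covered scaling, array weights, samples fitted, prior, dim filter, probe set, the label of T1 replicate 3, replicate block and each array left out.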

Additional observations from a re-analysis of the deposited data

How the results depend on the processing

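The count over stages was 7, 3 without the T4 arrays, and 6 to 8 with 1 array left out. At T1 against T0 the count of 1 became 0 with quantile normalization, median centring, a trended and robust prior, T1 replicate 3 placed with T2 or a replicate block, and 3 with array weights or only the arrays compared (0 to 1 with 1 array left out). At T2 against T1 the count of 0 became 1 with array weights, only the arrays compared or without the T4 arrays, and at T3 against T2 it became 2 with array weights (0 to 1 in both with 1 array left out). At T4 against T3 the count of 5 became 1 with quantile normalization and 0 with only the arrays compared (3 to 5 with 1 array left out, 3 without T3 replicate 3 or T4 replicate 1). At T2 against T0 the count of 2 became 1 with quantile normalization or T1 replicate 3 placed with T2, and 6 with array weights (0 to 3 with 1 array left out). At T4 against T2 the count of 4 became 7 with array weights and 3 with only the arrays compared or the mean of the Jun probe sets (4 to 5 with 1 array left out). At T3 against T0, a comparison added after seeing the data, the count of 4 became 2 with quantile normalization (2 to 4, 2 without T3 replicate 1). At T4 against T1, also added, the count of 6 was 3 to 7 with 1 array left out, 3 without T4 replicate 1. The 4 called neighbours became 0 with quantile normalization, 9 with array weights, and 2 without the T4 arrays, with T1 replicate 3 placed with T2 or with a replicate block (2 to 4). The cause of these moves was not tested, and the array weights did not converge. Beside the counts with array weights no share of all probe sets is given, so they are not read as results about the members. Read from the other Jun probe set, an alternative also added after seeing the data, Jun turned to 0.91 at T4 against T3, 0.94 against T2 and 1.04 against T1, and with the mean of both probe sets to 0.12 at T4 against T1. Of the 27 called changes of members, 5 were at T4 against T0: Jun, Egr1, Atf3, Dusp1 and Nr4a1, all lower. Among all 36685 probe sets, 9864 were called lower and 10286 higher in that comparison. The other Jun probe set rose there (0.70, limma adjusted p = 0.00946). Those 5 were run only with quantile normalization, median centring and a replicate block. Quantile normalization lost Dusp1 (-0.98, adjusted p = 0.141) and called Fosb (0.72, 0.03) and Junb (1.21, 0.000592) higher. It called 47% of all probe sets. Median centring and the block each called 5 members. With the block 19678 of 36685 probe sets were called there, and the share with median centring is not given here. Of the other 22, 4 kept direction and call under all alternatives run. These were Dusp1 at T4 against T2, Atf3 at T4 against T1, and Junb and Egr1 at T3 against T0. Atf3 was above the olfactory 95th percentile on 0 of 3 T4 arrays, so no size is given for its fall. All but the Dusp1 change come from comparisons added after seeing the data. Same-numbered arrays did not deviate together (30 pairs, r -0.19 to 0.12), so the replicate number was not used as a pairing. The block lost Egr1 at T1 against T0 (adjusted p = 0.076) and Jun at T4 against T1 (0.0506), and changed no other member call in the comparisons run. It called 2529 probe sets at T1 against T0, against 2772. The dim filter kept 22638 probe sets and all 10 members.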
